A study of Mus musculus with 10 samples.

Results

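Potassium channel genes were taken as every gene symbol made of Kcn, letters and a number, with a mean of at least 0.5 CPM (reads per 1000000 reads of a library) over the 10 libraries. Of 92 symbols of that form, 13 were under the minimum, and Kcnj13 and Kcne2 were left out because choroid plexus epithelium, a tissue next to the hippocampus, expresses both strongly. The remaining 77 genes are described here, out of 15081 genes tested and 24421 symbols. They comprised 37 pore subunits of voltage-gated (Kv) channels, 8 Kv auxiliary subunits, 12 inward rectifiers, 10 two-pore channels, 7 subunits of calcium-activated channels and 3 genes of the sodium-activated or other Slo group.

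RNA sequencing was performed on the ventral hippocampus (vHpc) of ovariectomized (OVX) C57BL/6 females, operated at about 70 to 80 days of age, which were wild type (WT) or heterozygous for a BDNF Val66Met knock-in allele (Het-Met, Met/+). After 2 weeks of recovery, mice drank either 300 nM β-estradiol (E2, about 0.7 µg per day) in 0.1% ethanol or the 0.1% ethanol alone (vehicle) for 6 weeks. Each library held RNA pooled from 2 animals. Analysed here were 2 libraries of WT mice on vehicle, 2 of WT mice on E2, 3 of Het-Met mice on vehicle and 3 of Het-Met mice on E2. All animals lacked ovaries, so vehicle stood for low ovarian hormone and not for an intact cycle. The mutation is carried in every cell, and the tissue is a bulk dissection, in which fewer cells of a type and less RNA per cell cannot be told apart.

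Potassium channels let K+ leave the cell and bring the membrane back toward rest. Kv channels open on depolarization and shape the action potential and the firing rate, inward rectifiers and two-pore channels set the resting potential, and calcium-activated channels follow spikes and calcium entry. In the hippocampus, Kcnq3 and Kcnq5 contribute to the M-current that damps repetitive firing, Kcnma1 forms the large-conductance BK channel, Kcnn genes form the small-conductance SK channels, and Kcnj3, Kcnj6 and Kcnj9 form the GIRK channels opened by G proteins. Astrocytes use Kcnj10 and Kcnj16 to take up K+.

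The libraries held 19820184 to 23267410 reads, and 1 read was worth 0.043 to 0.0505 CPM. The 77 genes took 0.522% to 0.591% of all reads. The share was 0.571% to 0.591% in the 4 WT libraries and 0.522% to 0.575% in the 6 Het-Met libraries, so the genotypes overlapped. Vehicle-treated Het-Met replicate 1 stood apart: the mean log2 level of the 77 genes relative to its average over libraries was -0.122 there, against -0.0444 to -0.00683 in the other Het-Met libraries. That library also had the highest summed level of 15 choroid plexus markers, 3320 CPM, of which Ttr alone made up 3060 CPM. Of the other markers, all but Sostdc1, Kcne2 and Steap1 were higher in E2-treated WT replicate 1, such as Kl at 112 against 76.9 CPM. The rank of that library in choroid plexus content thus rests on Ttr. The animals of a group came from several litters, which the labels do not tie to libraries. Replicate libraries of a group differed by more than sampling noise, so p-values measure the spread between these pools.

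Levels between genes were compared as CPM per kb of exonic length. The auxiliary subunit Kcnab2, a cytoplasmic β subunit of Kv1 channels, was the highest at 123 CPM per kb, from 12936 to 17566 reads per library. Among pore subunits, Kcna1, an axonal Kv1 channel, stood at 57.8 and Kcnd2, a Kv4 channel of dendrites, at 23.6 CPM per kb. Kcnip2 at 55.1 and Kcnip3 at 36.6 CPM per kb, calcium-binding partners of the Kv4 channels, followed Kcnab2 among the auxiliary genes. Kcnj3 at 43.0, Kcnj10 at 42.2 and Kcnj4 at 28.6 CPM per kb led the inward rectifiers, and Kcnk1 at 28.9, Kcnk2 at 8.87 and Kcnk3 at 4.06 CPM per kb led the two-pore genes. Calcium-activated channels were lower, with Kcnn2 at 5.93, Kcnma1 at 5.82 and Kcnn1 at 4.51 CPM per kb, and among the sodium-activated or other Slo genes Kcnt1 reached 9.29, Kcnt2 2.77 and Kcnu1 1.22 CPM per kb. The family medians were 17.8 CPM per kb for auxiliary genes, 7.27 for inward rectifiers, 6.89 for Kv pore genes, 2.61 for calcium-activated and 2.21 for two-pore genes. Levels within the Kv pore family ranged from 57.8 down to 0.132 CPM per kb for Kcnh8, which had 9 to 22 reads per library. At the low end, Kcnk16 and Kcnj1 were listed at 0 in every library.

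**Figure D1:**
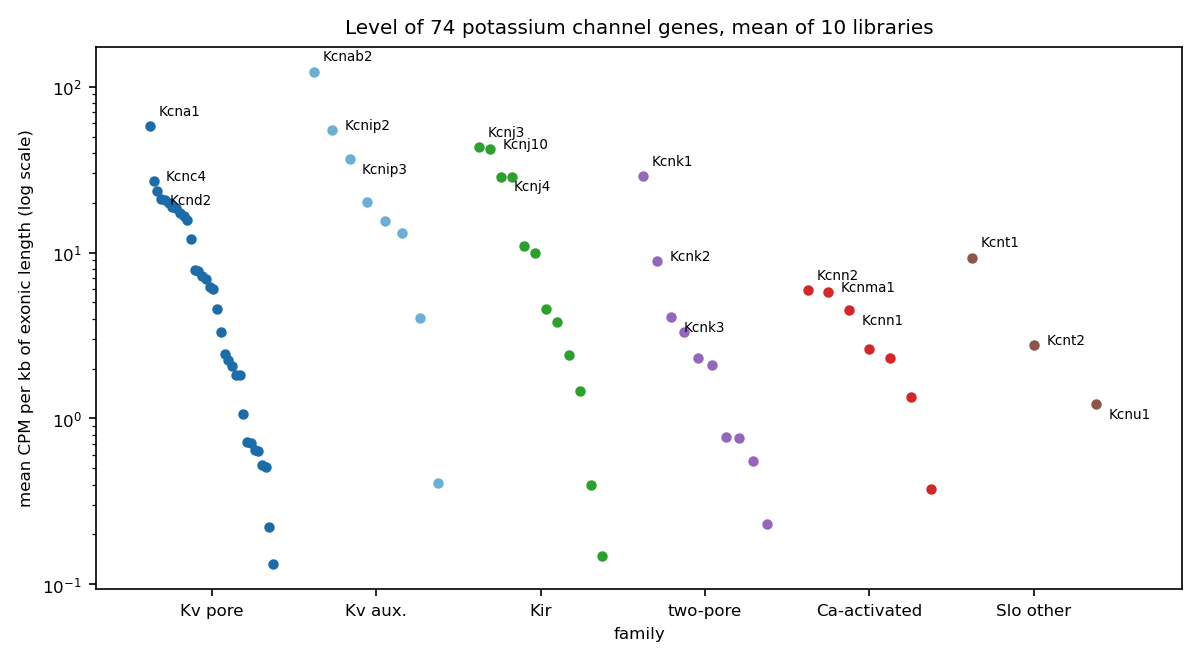
Mean level over 10 libraries of 74 of the 77 potassium channel genes, as CPM per kb of exonic length on a log axis, in columns by family (Kir, inward rectifier). Each point is 1 gene, ordered from high to low within its family, and the 3 highest drawn in each family are named. Kcnab2 stands highest at 123 CPM per kb and Kcnh8 lowest at 0.132.

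The first question was whether the Met allele altered the level of potassium channel genes over both treatments. Many Kv pore genes were lower in OVX Het-Met mice, together with Kcnma1 and Kcnk9, but no single gene passed the multiple-testing threshold. A call needed a Benjamini-Hochberg adjusted p under 0.05 and a fold change over 1.3 in limma, fitted to log2(CPM + 0.5) of all 15081 genes. On that rule 0 of the 77 genes were called, against 0.0265% of all genes. At an unadjusted p under 0.05, 16 of 77 genes (20.8%) were lower and 2 (2.6%) higher in Het-Met mice, against 7.27% of all genes lower and 9.33% higher. Of the 77 genes, 7 had every Het-Met library below every WT library (9.09%, against 1.72% of all genes), and 0 had every Het-Met library above (2.63% of all genes). Among the 7 were Kcna3, Kcnb2, Kcnc1, Kcnq3, Kcnk9 and Kcnma1. Under median-of-ratios scaling the same count was 17 lower and 0 higher, against 9.43% and 6.76% of all genes. Without E2-treated WT replicate 1, 10 were lower and 0 higher, against 4.94% and 6.38% of all genes.

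Kcna3 encodes Kv1.3, a delayed rectifier known from microglia and lymphocytes as well as from neurons. Its single-exon gene lies at chr3:107036169-107038070 (mm10, plus strand). It measured 4.16 and 6.14 CPM in WT mice on vehicle, 5.83 and 6.88 CPM in WT mice on E2, 2.56, 3.58 and 3.25 CPM in Het-Met mice on vehicle and 3.52, 3.92 and 2.94 CPM in Het-Met mice on E2. All 6 Het-Met libraries lay below all 4 WT libraries. The log2 fold change was -0.71 ± 0.135 (SE; adjusted p = 0.0989), from 54 to 160 reads per library. Kcna3 and Kcnh7 also stand in gene lists that the study drew up by genotype from these libraries, so they are not independent evidence of a direction. The 8 microglia markers summed to 402 to 425 CPM in WT and 412 to 471 CPM in Het-Met libraries, with 3 of 8 higher and 0 lower at an unadjusted p under 0.05.

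Kcnma1 encodes the BK channel, opened by both voltage and calcium, and spans 725 kb at chr14:23289431-24014491 on the minus strand. Its level was 103 and 123 CPM in WT mice on vehicle, 124 and 118 CPM in WT mice on E2, 71.6, 102 and 81.5 CPM in Het-Met mice on vehicle and 97.9, 85.6 and 81.1 CPM in Het-Met mice on E2. The highest Het-Met value sat just under the lowest WT value. The log2 fold change was -0.44 ± 0.0877 (SE; adjusted p = 0.103). Kcnmb4, the neuronal β4 subunit that modulates BK gating, was higher by 0.19 on the log2 scale (SE 0.085, adjusted p = 0.27), at 7.35 to 8.70 CPM in WT and 8.21 to 9.96 CPM in Het-Met libraries. The genotypes overlapped for Kcnmb4.

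Kcnq3 encodes Kv7.3, a subunit of the channels of the M-current. Kcnq3 (chr15:65986387-66286642, minus strand) measured 30.3 and 35.4 CPM in WT mice on vehicle, 37.3 and 31.4 CPM in WT mice on E2, 15.9, 27.1 and 26 CPM in Het-Met mice on vehicle and 27.0, 22.5 and 18.3 CPM in Het-Met mice on E2. Its genotypes did not overlap, and the log2 fold change was -0.57 ± 0.137 (SE; adjusted p = 0.12). Kcnq5, a related subunit, had a log2 fold change of -0.06 ± 0.0524 (SE; adjusted p = 0.599).

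Kcnh7 encodes Kv11.3, a neuronal channel of the ether-a-go-go-related family, at chr2:62693414-63184287 on the minus strand. It was at 8.79 and 10.7 CPM in WT mice on vehicle, 10.8 and 10.7 CPM in WT mice on E2, 4.03, 9.74 and 5.70 CPM in Het-Met mice on vehicle and 6.51, 6.87 and 5.93 CPM in Het-Met mice on E2. Only vehicle-treated Het-Met replicate 2, at 9.74 CPM, reached into the WT range. The log2 fold change was -0.66 ± 0.168 (SE; adjusted p = 0.126). Without that library, 4 of the 77 genes were called in the same fit, against 0.57% of all genes, whereas 0 were called when any 1 of the other 9 libraries was left out. The 4 were Kcna3 (adjusted p = 0.0304), Kcnma1 (adjusted p = 0.0105), Kcnq3 (adjusted p = 0.0455) and Kcnh7 (adjusted p = 0.0105). DESeq2 on the reads called 4 genes, against 0.584% of all genes. These were Kcna3, Kcnma1, Kcnh7 and Kcnk9, with adjusted p-values of 0.0026, 9.19e-04, 0.0142 and 0.0441.

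Promoter windows of Kcna3, Kcnma1 and Kcnh7 are shown because these genes led the genotype comparison and had a window on file in RefSeq (GRCm38.p6, 250 bases before to 50 after the annotated start). Each is printed from 5′ to 3′ on the strand of the gene. Capitals mark the GC box GGGCGG, read on either strand, which Sp-family factors bind. The windows lie at chr3:107035912-107036211 (plus), chr14:24004156-24004455 (minus) and chr2:63184238-63184537 (minus).
Kcna3: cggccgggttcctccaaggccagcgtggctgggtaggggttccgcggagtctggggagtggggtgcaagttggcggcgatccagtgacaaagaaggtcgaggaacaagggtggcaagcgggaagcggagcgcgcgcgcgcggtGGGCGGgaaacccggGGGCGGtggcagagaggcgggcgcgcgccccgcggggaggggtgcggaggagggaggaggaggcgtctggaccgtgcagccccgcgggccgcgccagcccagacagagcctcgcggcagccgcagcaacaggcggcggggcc
Kcnma1: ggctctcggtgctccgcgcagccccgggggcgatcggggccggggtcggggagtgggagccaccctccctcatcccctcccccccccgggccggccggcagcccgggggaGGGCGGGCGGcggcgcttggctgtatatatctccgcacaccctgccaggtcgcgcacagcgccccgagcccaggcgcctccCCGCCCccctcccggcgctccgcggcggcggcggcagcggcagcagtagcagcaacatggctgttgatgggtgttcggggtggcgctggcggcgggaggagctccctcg
Kcnh7: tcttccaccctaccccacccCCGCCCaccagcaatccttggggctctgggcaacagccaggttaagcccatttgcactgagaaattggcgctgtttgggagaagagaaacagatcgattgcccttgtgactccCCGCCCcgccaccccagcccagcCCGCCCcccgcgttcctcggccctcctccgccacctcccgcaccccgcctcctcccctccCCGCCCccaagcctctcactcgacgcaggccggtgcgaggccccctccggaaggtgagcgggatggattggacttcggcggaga
The Kcna3 window held 2 GC boxes, the Kcnma1 window 3 and the Kcnh7 window 4, of which a pair in Kcnma1 share bases. G and C made up 75% of the Kcna3 window, 78% of the Kcnma1 window and 67.7% of the Kcnh7 window. Among 77 windows of 54 potassium channel genes, 39 (50.6%) held a GC box, against 35.7% of all 32851 windows. Of the 11 windows of the genes lower in Het-Met mice (10 of 16 genes had one), 8 held a GC box. The consensus estrogen response element, a palindrome, was in 0 of the 77 windows (0.07% of all windows), its single arm AGGTCA in 5 (6.49%, against 16.3%), the cAMP response element TGACGTCA in 0 (1.79% of all) and the TATA box letters TATAAA in 3 (3.9%, against 13.6%). All motifs were searched on both strands, and the single arm overlaps part of the full estrogen element. A match is a description of these letters.

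**Figure D2:**
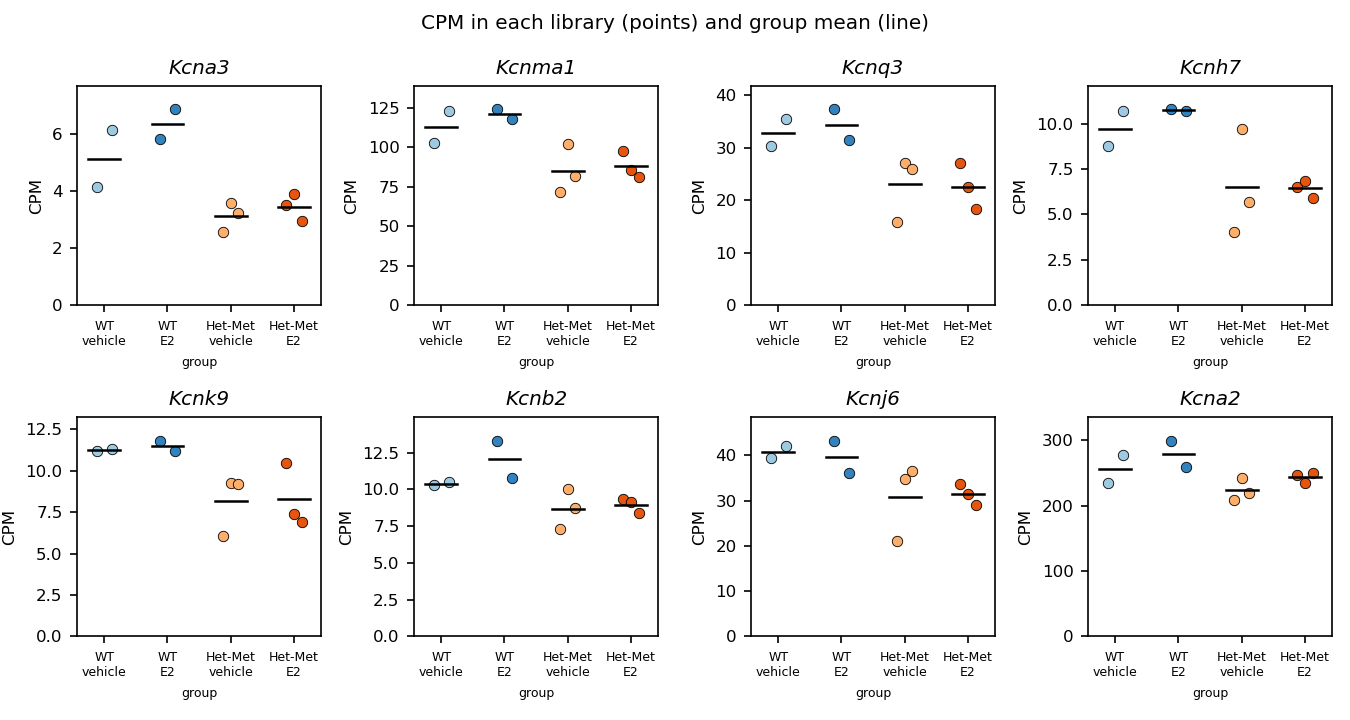
CPM in each library for 8 genes of lower level in Het-Met mice, with 1 panel per gene, 4 groups on the horizontal axis and an axis from 0. Points are libraries and lines are group means. All Het-Met points lie below all WT points for Kcna3, Kcnma1, Kcnq3, Kcnk9 and Kcnb2, whereas Kcnh7, Kcnj6 and Kcna2 have overlapping libraries.

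Kcnk9 encodes TASK-3, a two-pore channel of background current and an imprinted gene expressed from the maternal copy. It was at 11.2 and 11.3 CPM in WT mice on vehicle, 11.8 and 11.2 CPM in WT mice on E2, 6.07, 9.28 and 9.23 CPM in Het-Met mice on vehicle and 10.5, 7.42 and 6.92 CPM in Het-Met mice on E2. The WT libraries were within a narrow range, the Het-Met libraries spread more widely below it, and the log2 fold change was -0.46 ± 0.132 (SE; adjusted p = 0.14). Its relative Kcnk3 (TASK-1) had a log2 fold change of -0.14 ± 0.0817 (SE; adjusted p = 0.402). The abundant two-pore gene Kcnk1 (TWIK-1) was at 60.0 to 68.2 CPM in WT and 59.4 to 74.4 CPM in Het-Met libraries.

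Kcnb2 encodes Kv2.2, a delayed rectifier of neurons. It was at 10.3 and 10.5 CPM in WT mice on vehicle, 13.3 and 10.8 CPM in WT mice on E2, 7.31, 10 and 8.72 CPM in Het-Met mice on vehicle and 9.35, 9.17 and 8.39 CPM in Het-Met mice on E2, with a log2 fold change of -0.33 ± 0.101 (SE; adjusted p = 0.149). The genotypes did not overlap.

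Of the Kv1 genes, Kcna2 (log2 fold change -0.19 ± 0.0623) and Kcna1 (-0.12 ± 0.052), which share axonal channels, were lower at an unadjusted p under 0.05, and Kcna4 was at -0.13 ± 0.0915 with p above it. Kcnc1, the Kv3.1 channel of fast-spiking interneurons, was at 205 to 223 CPM in WT and 171 to 205 CPM in Het-Met libraries, with a log2 fold change of -0.14 ± 0.0507. Its paralog Kcnc2 was at 138 to 154 CPM in WT and 119 to 145 CPM in Het-Met libraries (log2 fold change -0.09 ± 0.0602). The 8 interneuron markers had 0 genes higher and 0 lower by genotype at an unadjusted p under 0.05. Kcnh1, an ether-a-go-go channel, was at -0.16 ± 0.0739 on the log2 scale. Kcng3, a silent subunit that forms no channel alone and was named after its values were seen, was at -0.65 ± 0.239 with as few as 13 reads in a library.

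The Kv4 system of dendrites showed smaller differences. Kcnd2 and Kcnd3, its pore genes, had log2 fold changes of 0.04 ± 0.059 and -0.10 ± 0.0592. Averaged over both treatments, Kcnip2 was higher in Het-Met mice by 0.13 on the log2 scale (SE 0.0588; adjusted p = 0.287), at 167 to 188 CPM in WT and 175 to 232 CPM in Het-Met libraries. The difference lay under vehicle, with group means of 176 CPM in WT and 214 CPM in Het-Met mice. Under E2 the means were 186 and 183 CPM. Kcnab1 and Kcnab2 were at 0.05 ± 0.0579 and 0.06 ± 0.0591. The direction of the Kcnip2 difference held in all 22 alternatives, and its unadjusted p rose above 0.05 in 14 of them.

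Among inward rectifiers, the GIRK2 gene Kcnj6 was set apart from its partners. Kcnj6 was at 39.4 and 42.1 CPM in WT mice on vehicle, 43.2 and 36.2 CPM in WT mice on E2, 21.2, 34.9 and 36.6 CPM in Het-Met mice on vehicle and 33.7, 31.5 and 29.0 CPM in Het-Met mice on E2. Only vehicle-treated Het-Met replicate 3 and E2-treated WT replicate 2 crossed, and the log2 fold change was -0.38 ± 0.122 (SE; adjusted p = 0.162). Kcnj3 (GIRK1) and Kcnj9 (GIRK3) had log2 fold changes of 0.02 ± 0.0459 and 0.03 ± 0.0553. Kcnj11, the pore of neuronal KATP channels, was at 0.01 ± 0.0689.

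The astrocyte channels Kcnj10 (log2 fold change -0.15 ± 0.0841) and Kcnj16 (-0.11 ± 0.0919) did not pass an unadjusted p of 0.05. Kcnj10 was at 202 to 278 CPM in WT and 194 to 245 CPM in Het-Met libraries. Its highest level, 278 CPM, was in the library with the highest summed level of 8 astrocyte markers, 6980 CPM. Its lowest level, 194 CPM, was in the library with the lowest sum, 5660 CPM. The part of astrocyte content in Kcnj10 was not tested.

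The SK channels formed by Kcnn genes open on calcium entry that follows spikes. Kcnn3 was lower at an unadjusted p under 0.05, with a log2 fold change of -0.24 ± 0.0916 (adjusted p = 0.212), at 24.1 to 28.1 CPM in WT and 17.4 to 26 CPM in Het-Met libraries. Kcnn2 (-0.03 ± 0.0666) and Kcnn1 (-0.02 ± 0.078) had smaller log2 fold changes. Of the sodium-activated genes, Kcnt2 (Slick) was at -0.21 ± 0.0874 and Kcnt1 (Slack) at 0.02 ± 0.0895.

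By family, 29 of 37 Kv pore genes had a lower mean log2 level in Het-Met mice, 11 of them at an unadjusted p under 0.05, with a median log2 fold change of -0.0926 against 0.024 over all genes tested. The medians were -0.102 for two-pore genes (7 of 10 lower), -0.0332 for calcium-activated genes (6 of 7 lower), 0.0169 for inward rectifiers (4 of 12 lower) and 0.0535 for Kv auxiliary genes (3 of 8 lower). Over the 77 genes, 64.9% had a negative log2 fold change, against 42.7% of all genes tested. The mean log2 level of the Kv pore family, relative to its average over libraries, was 0.0348 to 0.0982 in the 4 WT libraries and -0.179 to 0.00147 in the 6 Het-Met libraries. The genotypes did not overlap in that mean, and vehicle-treated Het-Met replicate 1 was the lowest. Without that library, 14 genes were lower and 1 higher at an unadjusted p under 0.05, against 5.98% and 6.92% of all genes. Within treatments, the inward rectifier median was -0.031 under vehicle (9 of 12 lower) and 0.097 under E2 (4 of 12 lower). The Kv pore medians were -0.11 and -0.0813, and those of all genes 0.02 and 0.0279. Of the inward rectifiers, 8.33% had a negative interaction, against 48.6% of all genes, and 0 had an unadjusted p under 0.05 for it.

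**Figure D3:**
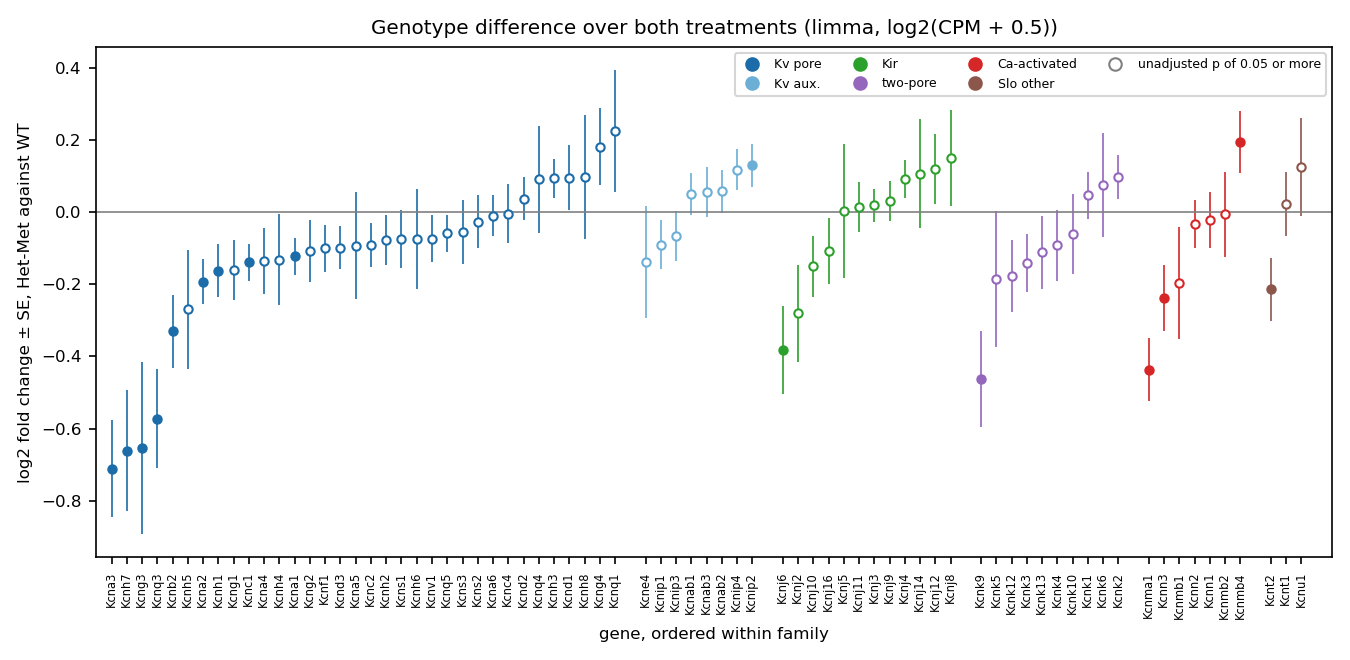
Log2 fold change of Het-Met against WT over both treatments for 74 of the 77 genes, with the SE as a bar, ordered within families shown by colour. Filled points have an unadjusted p under 0.05 (14 lower, 2 higher) and open points do not. Most Kv pore genes lie below 0, from -0.71 for Kcna3, whereas the auxiliary and inward rectifier genes lie on both sides.

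Exonic length went along with the genotype difference across all genes. Over 14974 genes with a length, Spearman's rho between the genotype log2 fold change and exonic length was -0.424, and over the 77 channel genes it was -0.347. These are descriptions across genes of the same libraries. Of the 77 genes, 9 had at least 10 kb of exons, among them Kcna2, Kcnb2, Kcnh7, Kcnq3, Kcnk9, Kcnma1 and Kcnn3. All 9 were lower at an unadjusted p under 0.05, compared with 28.8% of 1457 genes of that length, and their median log2 fold change was -0.33 against -0.0821. Of the 68 shorter channel genes, 7 (10.3%) were lower, compared with 4.95% of 13517 shorter genes. With the trend on exonic length removed from each library, 15 genes were lower and 0 higher, against 6.46% and 4.73% of all genes, and 11 of the original 16 were among the 15. Kcnh1, Kcnn3 and Kcnc1 were among the 5 that no longer passed. Kcna3, with 1.90 kb of annotated exons, and Kcng3, with 3.36 kb, were the short genes of large difference.

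**Figure D4:**
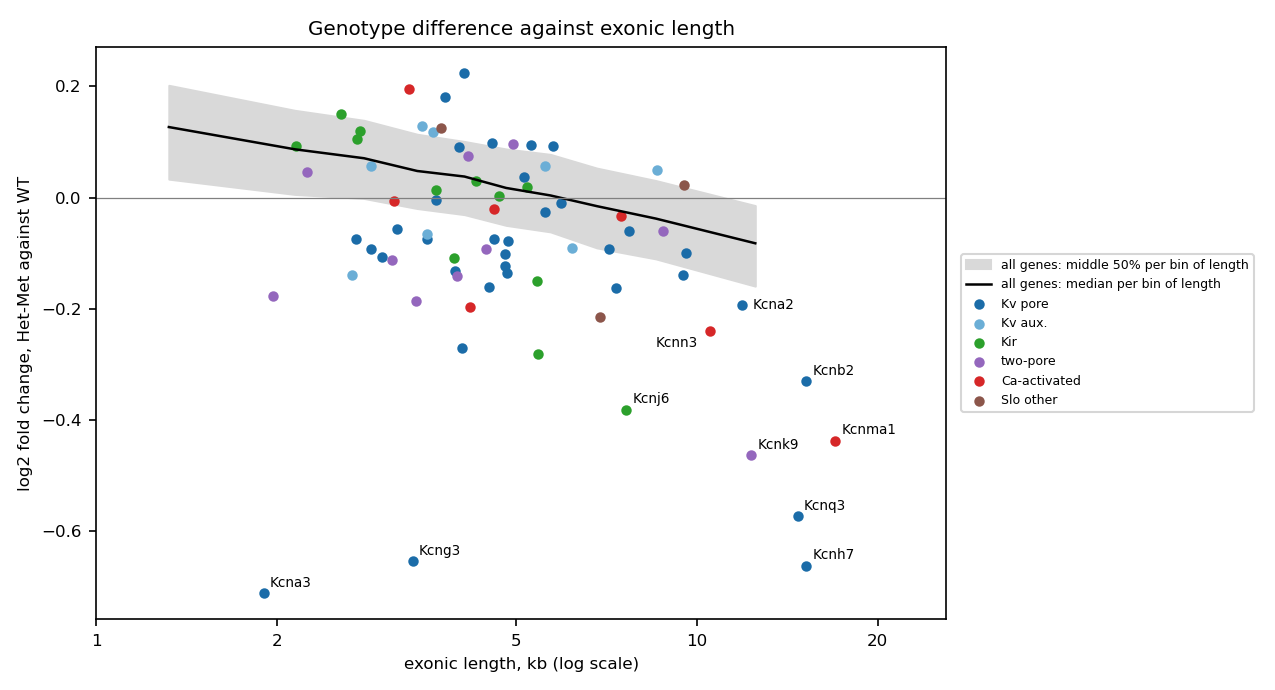
Log2 fold change of Het-Met against WT over both treatments against exonic length on a log axis. Coloured points are 74 of the 77 channel genes by family. The black line and grey band give the median and the middle 50% of all genes in each of 10 bins of exonic length. The 7 drawn genes of at least 10 kb all lie below 0, from -0.19 for Kcna2 to -0.66 for Kcnh7, and Kcna3 at 1.90 kb lies at -0.71.

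The 6 genes of smallest p in the genotype comparison varied together within groups. After group means were removed, 6 residual degrees of freedom remained over the 10 libraries. The correlations between Kcna3, Kcnma1, Kcnq3, Kcnh7, Kcnk9 and Kcnb2 then ranged from 0.416 (Kcna3 with Kcnb2) to 0.927 (Kcnq3 with Kcnk9). Correlations between other pairs of genes were not computed for comparison. Residuals of the 16 lower genes correlated with those of the median gene over 10 kb at values from -0.0162 (Kcnt2) to 0.947 (Kcnc1), 13 of them over 0.5, whereas 22 of all 77 channel genes were over 0.5. Kcnq3 was at 0.903, Kcnk9 at 0.894 and Kcnma1 at 0.86, compared with 0.546 for Kcna3, 0.382 for Kcna1 and 0.224 for Kcng3. Of the genes not lower in Het-Met mice, Kcnk2 (TREK-1) was at -0.948. These values describe 10 libraries that share their depth and normalization. How far length, library preparation or RNA quality took part in the genotype difference was not tested.

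Position relative to Bdnf was also listed, since the Met allele lies in that gene. Of the 77 genes, 9 are on chromosome 2 with Bdnf. Of these, 3 were lower at an unadjusted p under 0.05, against 20.8% of the 77 genes and 7.27% of all genes. Among the 3 was Kcnh7, at 46.5 Mb from Bdnf. The nearest of the 9, Kcna4 at 2.38 Mb and Kcnip3 at 17.7 Mb, had unadjusted limma p-values of 0.162 and 0.362. A relation between distance and the genotype difference was not tested. Bdnf itself had a log2 fold change of -0.24 (adjusted p = 0.167).

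The genotype difference was also read within each treatment. Of the genes lower at an unadjusted p under 0.05, 14 under vehicle and 13 under E2, 6 were in both lists (42.9% and 46.2%), namely Kcna2, Kcna3, Kcnh7, Kcnk9, Kcnma1 and Kcnq3. The overlap of such lists over all genes was not counted, so the 6 cannot be set against it. Under vehicle, 0 of 77 genes were called (0.00663% of all genes), and 14 were lower and 1 higher at an unadjusted p under 0.05, against 4.83% and 5.85% of all genes. The smallest p-values were those of Kcnip2 (log2 fold change 0.28 ± 0.0832), Kcnma1 (-0.42 ± 0.124), Kcna3 (-0.63 ± 0.191), Kcnh4 (-0.53 ± 0.179) and Kcnq3 (-0.54 ± 0.194), with adjusted p-values from 0.331 to 0.393. The 15 genes became 5 without vehicle-treated WT replicate 3 (8.17% of all genes) and 8 without vehicle-treated Het-Met replicate 1 (6.83% of all genes). Kcna3 was at -0.37 without vehicle-treated WT replicate 3, Kcnh4 at -0.27 without vehicle-treated WT replicate 1, and Kcnq3 at -0.30 without vehicle-treated Het-Met replicate 1, each with an unadjusted p above 0.05. Under E2, 0 of 77 genes were called (0.0265% of all genes), and 13 were lower and 3 higher, against 5.36% and 6.29% of all genes. Kcna3 (-0.79 ± 0.191), Kcnma1 (-0.46 ± 0.124), Kcnq3 (-0.61 ± 0.194), Kcnh7 (-0.70 ± 0.237) and Kcnab3 (0.27 ± 0.0976) came first, with adjusted p-values from 0.316 to 0.353. The 16 genes became 7 without E2-treated WT replicate 1 (5.43% of all genes), 7 without replicate 2 (5.51%), and 5 with the choroid plexus level of each library as a covariate (3.61%). With only the E2-treated libraries in the fit, Kcnma1 (adjusted p = 0.0407) and Kcnh7 (adjusted p = 0.0483) were called, against 0.345% of all genes.

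The other question was whether E2 altered these genes, and whether the response depended on genotype. In OVX WT mice 0 of 77 genes were called (0.0133% of all genes), and 0 were higher and 0 lower at an unadjusted p under 0.05, against 2.37% and 1.66% of all genes. Both edgeR and DESeq2 on the reads also gave 0 genes at that p. The smallest limma p-values were 0.0584 for Kcnk10 and 0.0606 for Kcnab3, followed by Kcnip3, Kcnmb1 and Kcng1. Leaving out vehicle-treated WT replicate 3, which left 1 vehicle-treated WT library, gave 7 genes at an unadjusted p under 0.05 (8.56% of all genes), and fitting only the WT libraries gave 4 (5.11% of all genes). In OVX Het-Met mice 0 of 77 were called (0% of all genes), and 5 were higher and 2 lower at an unadjusted p under 0.05, against 2.82% and 2.63% of all genes. Without vehicle-treated Het-Met replicate 1, 11 genes passed (6.61% of all genes). With the choroid plexus level as a covariate, 5 genes passed (3.66% of all genes), 4 of them among the 7, and Kcnt1, Kcna5 and Kcng2 no longer did. The median log2 fold change of the 77 genes was 0.0532 in Het-Met mice and -0.00868 in WT mice, against 0.00445 and -0.00261 over all genes.

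Kcnh4, an ether-a-go-go-like channel, had the smallest p in Het-Met mice. It measured 6.31, 4.49 and 6.03 CPM in vehicle-treated and 8.71, 7.42 and 8.87 CPM in E2-treated Het-Met libraries, and 9.95 and 6.79 CPM in vehicle-treated and 7.45 and 6.27 CPM in E2-treated WT libraries. The Het-Met treatment groups did not overlap, with a log2 fold change of 0.54 ± 0.16 (adjusted p = 0.742), whereas the WT groups overlapped. Het-Met treatment groups of 3 libraries each also lay apart for other channel genes, such as Kcnj3 and Kcna5. The share of all genes with treatment groups apart was not counted, for Kcnh4 or for the genes below. The genotype by E2 interaction, the difference between the responses, was 0.79 ± 0.253 on the log2 scale (adjusted p = 0.547).

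Kcnt1 was at 82.7, 74.9 and 75.7 CPM in vehicle-treated and 100, 83.9 and 117 CPM in E2-treated Het-Met libraries, and at 105 and 80.5 CPM in vehicle-treated and 87.0 and 75.9 CPM in E2-treated WT libraries. The Het-Met groups did not overlap, with a log2 fold change of 0.35 ± 0.113 (adjusted p = 0.753) and an interaction of 0.53 ± 0.179 (adjusted p = 0.566). With the choroid plexus covariate the log2 fold change of Kcnt1 in Het-Met mice was 0.25, with an unadjusted p of 0.0899. Kcnab3, a β subunit of Kv1 channels, was at 39.3, 34.2 and 32.2 CPM in vehicle-treated and 42.1, 43.1 and 37.7 CPM in E2-treated Het-Met libraries, and at 40.1 and 38.5 CPM in vehicle-treated and 35.2 and 32.4 CPM in E2-treated WT libraries. Its interaction of 0.44 ± 0.138 had the smallest p of the 77 genes (adjusted p = 0.537). The Kcnab3 groups of WT mice did not overlap, and those of Het-Met mice did.

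Of the Kv4 partners, no gene was called for E2 or for the interaction. Kcnip2 was at 217, 193 and 232 CPM in vehicle-treated and 175, 196 and 179 CPM in E2-treated Het-Met libraries, and at 185 and 167 CPM in vehicle-treated and 188 and 184 CPM in E2-treated WT libraries. Kcnip2 overlapped between treatments in either genotype. Its response to E2 in Het-Met mice was -0.22 ± 0.0744 on the log2 scale, with an interaction of -0.30 ± 0.118 (adjusted p = 0.742). Kcnip3 (DREAM, which also acts as a calcium-sensing repressor) had an interaction of 0.37 ± 0.14 (adjusted p = 0.727), while its unadjusted p for E2 was 0.0744 in WT and 0.0877 in Het-Met mice. It was at 148 and 138 CPM in vehicle-treated and 119 and 128 CPM in E2-treated WT libraries, without overlap, and at 114 to 132 CPM and 120 to 155 CPM in the Het-Met groups, which overlapped. Kcnip1 was at 21.1 to 23.7 CPM in vehicle-treated and 24.6 to 27.9 CPM in E2-treated Het-Met libraries (log2 fold change 0.23 ± 0.0848, adjusted p = 0.826), with no overlap there. Kcnip4 had log2 fold changes for E2 of -0.05 ± 0.0883 in WT and 0.04 ± 0.0721 in Het-Met mice. Kcna5, with 27 to 60 reads per library, had a log2 fold change of 0.47 ± 0.187 in Het-Met mice.

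For the interaction as a whole, 0 of 77 genes were called (0.0729% of all genes), and 4 were higher and 3 lower at an unadjusted p under 0.05, against 2.8% and 2.62% of all genes. Besides the genes above, Kcng2 (-0.38 ± 0.172) and the BK β1 subunit gene Kcnmb1 (-0.68 ± 0.31, with 23 to 52 reads per library), both named after their values were seen, made up the 7. The summed level of the 15 choroid plexus markers differed between the groups of this comparison, at 158 to 1120 CPM in WT mice on vehicle, 1970 to 2630 CPM in WT mice on E2, 1510 to 3320 CPM in Het-Met mice on vehicle and 276 to 1610 CPM in Het-Met mice on E2, and none of the markers was at 0 in all libraries. The covariate was not this sum but the mean log2 level of the 15 markers in each library. With it, 3 genes had an unadjusted p under 0.05 for the interaction (2.9% of all genes), of which 2 (Kcnab3 and Kcnip2) were among the 7. With each library left out in turn, the interaction was 0.374 to 0.516 for Kcnab3 and 0.531 to 1.05 for Kcnh4. It was 0.34 to 0.724 for Kcnt1 and 0.264 to 0.452 for Kcnip3. For Kcnip2 it was -0.376 to -0.229, for Kcng2 -0.484 to -0.241 and for Kcnmb1 -0.887 to -0.559. In these fits, a WT library left out leaves 1 library in its group. The 2 choroid plexus channel genes left out had interactions of -3.33 ± 0.58 for Kcnj13 and -3.68 ± 0.857 for Kcne2.

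**Figure D5:**
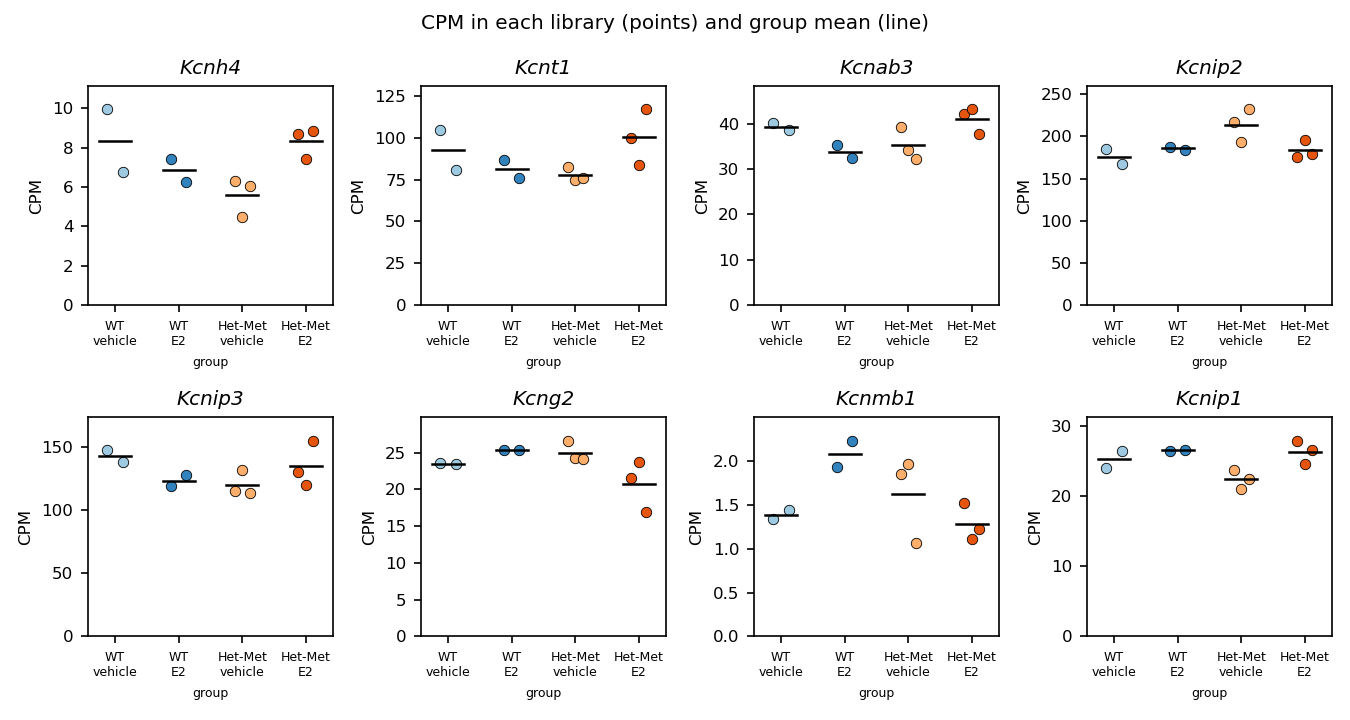
CPM in each library for 8 genes with an unadjusted p under 0.05 for E2 in Het-Met mice or for the genotype by E2 interaction, with 1 panel per gene and an axis from 0. Points are libraries and lines are group means. Kcnh4 and Kcnt1 are higher under E2 in Het-Met mice without overlap (log2 fold changes 0.54 and 0.35), while their WT groups overlap.

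Genes whose products work with potassium channels were counted next, from a list of 27 of which 26 were tested. By genotype over both treatments, 4 were lower and 0 higher at an unadjusted p under 0.05, against 7.27% and 9.33% of all genes. They included Cntnap2, which clusters Kv1 channels beside nodes (log2 fold change -0.27 ± 0.0614, adjusted p = 0.12), Kctd16, an auxiliary subunit of GABA-B receptors (-0.41 ± 0.121, adjusted p = 0.144), and Abcc9, the SUR2 subunit of KATP channels (-0.27 ± 0.0973, adjusted p = 0.195). Cntnap2 was at 105 to 129 CPM in WT and 89.3 to 109 CPM in Het-Met libraries, which overlapped. Under vehicle 5 were lower and 1 higher, against 4.83% and 5.85% of all genes, the higher one being Tmem38a (0.16 ± 0.0726). Under E2 3 were lower and 0 higher, against 5.36% and 6.29%. For E2 in Het-Met mice, 3 were higher and 0 lower, against 2.82% and 2.63% of all genes, namely Lrrc55, a γ subunit of BK channels (0.44 ± 0.113, adjusted p = 0.668), Dpp10, which assembles with Kv4 channels (0.33 ± 0.141), and Adam23, a receptor of the Kv1-associated protein Lgi1 (0.13 ± 0.0575). Dpp10 was at 75.3, 76.1 and 53 CPM in vehicle-treated and 77.4, 72.9 and 109 CPM in E2-treated Het-Met libraries, which overlapped. Its log2 fold change was 0.165 without vehicle-treated and 0.158 without E2-treated Het-Met replicate 3, and its unadjusted p rose above 0.05 in both and with the choroid plexus covariate. Lrrc55 was at 15.7, 13.8 and 17.7 CPM in vehicle-treated and 19.2, 21.9 and 23.5 CPM in E2-treated Het-Met libraries without overlap, with an interaction of 0.53 ± 0.179 (adjusted p = 0.566). In WT mice 0 of the 26 partner genes passed an unadjusted p of 0.05 for E2.

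Markers of other cells and regions were read beside the genotype counts. At an unadjusted p under 0.05, 3 of 9 thalamus markers were higher and 1 lower, 2 of 10 oligodendrocyte markers and 1 of 9 endothelial and mural markers were lower, and 1 of 7 dentate gyrus and 1 of 8 neuron markers were higher. Of the choroid plexus, astrocyte, interneuron and pyramidal cell markers, 0 passed in either direction. Summed neuron markers were 8140 to 8520 CPM in WT and 7980 to 8870 CPM in Het-Met libraries, and summed pyramidal cell markers 1860 to 1880 and 1760 to 2090 CPM. The part of tissue composition in the channel differences was not tested beyond the choroid plexus covariate.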

How the data were processed

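RNA from the vHpc was made into stranded libraries and sequenced as 75-bp single-end reads. Per the labels and the study's methods, the authors aligned reads to mm10 with TopHat2 and quantified them with DESeq in Strand NGS (versions and strand setting of the counting not given in the sources used here). The deposited values are CPM: each library sums to 1000000, although its column is headed as counts. Whole reads were recovered for 100% of values (tolerance 0.001), and 10 libraries of 19820184 to 23267410 reads were used. The study had 3 replicates per group, and 1 WT library of each treatment is not analysed here.

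limma 3.58.1 in R 4.3.3 was fitted to log2(CPM + 0.5) with means of the 4 groups and an intensity trend, over genes averaging 0.5 CPM or more, two-sided, with Benjamini-Hochberg adjustment over all 15081 genes (call: adjusted p under 0.05 and fold change over 1.3, as in the study). The pseudocount shrinks the fold changes of weakly expressed genes. edgeR 4.0.16 and DESeq2 1.42.0 were run on the recovered reads as alternatives. The other alternatives were pseudocounts of 0.1 and 1, no filter or a minimum of 2 CPM, scaling by median-of-ratios or quantiles, a replicate block, only the libraries compared, removal of the trend on exonic length or genomic span, a choroid plexus covariate, and each library left out. Positions and lengths came from GENCODE vM21 (GRCm38, the same as mm10), in which 23376 of 24421 symbols matched directly, 651 through older symbols and 394 not. The fitting script was tested on simulated data.

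The genes named were the 3 highest per family by CPM per kb, the 5 with the smallest p in each comparison, listed genes of known role in hippocampal cells, and partner genes with an unadjusted p under 0.05. The members and lists were chosen with earlier results of these data known. Values of some genes of these lists are counted but not reported here.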

Additional observations from a re-analysis of the deposited data

Results flagged for a closer look

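Kcng2, a silent Kv subunit, drew attention because every E2-treated WT library lay above every vehicle-treated WT library and every E2-treated Het-Met library lay below every vehicle-treated Het-Met library. It was at 23.6 and 23.4 CPM in WT mice on vehicle, 25.4 and 25.4 CPM in WT mice on E2, 26.6, 24.3 and 24.1 CPM in Het-Met mice on vehicle and 21.6, 23.8 and 16.9 CPM in Het-Met mice on E2. The genotype by E2 interaction was -0.38 on the log2 scale (adjusted p = 0.876). With the choroid plexus covariate it was -0.19. The share of all genes with such opposite separation was not counted, so Kcng2 cannot be set against it. The WT treatment groups, of 2 libraries each, also lay apart for many other channel genes. Among them were Kcnk10, Kcnab3, Kcnip3, Kcnb2, Kcnc1, Kcnk1, Kcnk2 and Kcnn3, so such separation was not particular to a few genes. Its share over all genes was not counted. None of the channel genes had an unadjusted p under 0.05 for E2 in WT mice.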

How the results depend on the processing

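The direction and the unadjusted p under 0.05 of the genotype difference held in all 22 alternatives for 7 genes: Kcna3, Kcnma1, Kcnq3, Kcnh7, Kcnk9, Kcnb2 and Kcnj6. The number of genes called stayed at 0 for E2 in either genotype, for genotype under vehicle and for the interaction. It was 2 for genotype under E2 with only the libraries compared (0.345% of all genes), and 4 for genotype over both treatments with DESeq2 (0.584%). The number at an unadjusted p for E2 in WT mice was 0, against 4.04% of all genes. It became 1 with quantile normalization (4.3% of all genes) and 2 with the replicate block (3.59%). With only the libraries compared it was 4 (5.11%), with the genomic span trend removed 1 (4.3%) and with the choroid plexus covariate 2 (2.74%). With that covariate, genotype under E2 gave 5 in place of 16 (3.61% in place of 11.7% of all genes). The interaction then gave 3 in place of 7 (2.9% in place of 5.42%). The median of Kv auxiliary genes was 0.0204 (0.0535 as reported) with the exonic length trend removed, and that of inward rectifiers -0.0307 (0.0169 as reported) with the span trend removed. Beyond the construction of each alternative, the cause was not tested.

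Leaving out 1 library at a time gave 0 to 7 genes at an unadjusted p for E2 in WT mice, 5 to 11 for E2 in Het-Met mice, 5 to 16 for genotype under vehicle, 7 to 19 under E2, 10 to 21 over both treatments (0 to 4 called) and 3 to 8 for the interaction, and a median of 0.0196 to 0.0679 for Kv auxiliary genes. The share of all genes moved between these fits too, so the counts are not a result about channel genes alone. For E2 in Het-Met mice it was 4.12% at the lowest count, without E2-treated Het-Met replicate 3. At the highest count, without vehicle-treated Het-Met replicate 1, it was 6.61%. Where 1 library of a group was left, it was assumed to vary like the other groups.

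Whether replicate numbers pair the libraries was not settled. Deviations from group means correlated at -0.172 to 0.0826 over 12 pairs of same-numbered libraries, against -0.151 to 0.172 for other pairs. In a WT group of 2 libraries, each deviation is the opposite of the other, so same-numbered and other pairs give mirrored values. These correlations therefore cannot decide the pairing. With the replicate block, 18 genes were lower and 1 higher by genotype over both treatments, including the original 16, against 6.98% and 9.23% of all genes. Genes of few reads, such as Kcng3 (13 to 88) and Kcnmb1 (23 to 52), allow only large differences to be seen.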
